A study of Homo sapiens with 6 samples.

Results

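Collagens are trimers of chains that wind into a triple helix, and each chain is made from its own gene. The genes described here were all rows of the deposited count table named COL, a number, A and a number, which gave 44 collagen chain genes among 61267 rows. Of these, 38 were among the 21905 genes with enough counts to be tested. They were measured by RNA sequencing in 6 libraries from THP-1 cells, an established human monocytic leukemia line, each made adherent by 48 h with 100 ng/ml of PMA, a phorbol ester that drives these cells toward a macrophage-like state. The labels give 3 libraries as NC and 3 as KD in the genotype field and otherwise describe both groups alike. They name no target for KD, no method of knockdown and no separate cultures, so p-values measure only the spread between these libraries, which may be technical. The series title names METTL1, a tRNA methyltransferase that places 7-methylguanosine, and acute inflammation.

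Collagen chains carry long runs of Gly-X-Y triplets, are hydroxylated and glycosylated in the endoplasmic reticulum, and are trimmed, assembled and cross-linked outside the cell. Fibrillar collagens build the rope-like fibrils of skin, bone and cartilage, collagen IV builds the sheet of basement membranes, collagen VI builds beaded filaments around cells, and FACIT collagens sit on the surface of fibrils. Fibroblasts, chondrocytes and epithelia are the best known producers. Macrophages are better known for cleaving and taking up collagen, but they also make some of it, collagen VI and collagen VIII among them.

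Total counts ran from 37628972 to 42970216 per library. METTL1 stood at 14.7 ± 1.01 CPM (counts divided by the library size in units of 1e6 counts, scaled by the TMM method, mean ± SD, n = 3 here and throughout) in NC and 13.7 ± 0.604 CPM in KD and did not pass the test with all genes setting the scale (log2 fold change -0.10, edgeR adjusted p = 0.216), while it was called lower on the leukocyte scale described next (-1.37, edgeR adjusted p = 1.10e-14). Each direction below compares the 3 libraries with the label KD to the 3 with the label NC. The libraries differed in markers of other cells. Of 12 markers of embryonic kidney and neuronal-type lines, 11 were lower and 1 higher in KD (11 and 0 on the leukocyte scale), and their summed level was 1739.7 to 2092 CPM in the NC libraries and 11.9 to 12.7 CPM in the KD libraries. NEFM, a neurofilament gene, made up most of that sum (1594 ± 198 to 0.389 ± 0.0281 CPM from NC to KD), and LIN28B, an embryonic RNA-binding protein gene, had no count in KD. CDKN2A, a cell cycle inhibitor gene on that list, went from 36.1 ± 0.953 to 0.110 ± 0.0963 CPM. Of 8 listed epithelial markers 7 were tested, and 6 were lower and none higher (7 and none on the leukocyte scale), with a summed level of 474 to 516 CPM in NC and 12.7 to 14.1 CPM in KD. Monocyte and macrophage markers summed to 922 to 949 CPM in NC and 1790.0 to 1819 CPM in KD, and 11 of 12 tested were higher and none lower (on the leukocyte scale, 1 higher and 6 lower). Because of these markers, each change is given on a pair of scales: the scale of all tested genes, and a scale set by 59 leukocyte-restricted genes (below, the leukocyte scale). Of these 59 genes, 58 were among the tested genes. CYBB, SPI1, CD33, ITGAM and CD86 are on both the monocyte list and that list. The median log2 fold change over all tested genes was -0.05 on the first and -1.31 on the second. Of all tested genes, 36.2% were called higher and 40.3% lower on the first, and 2.82% and 85.0% on the second. Each count of called markers, chains or listed genes is to be read beside these shares. In bulk RNA, fewer cells of a type and less RNA per cell cannot be told apart, and the part of these markers in the collagen results was not tested.

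With all tested genes setting the scale, 18 of the 38 tested chains were higher in KD and 17 were lower, while 3 did not pass (edgeR quasi-likelihood test, Benjamini-Hochberg adjusted p under 0.05). Among all tested genes 36.2% were higher and 40.3% lower, so being called was common in these data. At least 2-fold changes were found for 12 chains upward and 13 downward, against 12.6% and 22.9% of all tested genes. On the leukocyte scale such changes were found for 0 chains upward and 19 downward, against 0.447% and 62.9%. With library sizes alone they were found for 8 and 15 chains, against 1844 and 5792 of all 21905 tested genes. The median log2 fold change of the chains was 0.16, against -0.05 for all tested genes, but its sign was not stable: it was -0.025 with library sizes alone and -0.29 to 0.081 when each library was left out in turn. On the leukocyte scale, 4 chains were higher and 27 lower, with 2.82% and 85.0% of all tested genes called in those directions, and the median was -1.11 against -1.31. COL5A3, COL6A3, COL7A1 and COL22A1 were higher on both scales. Another 17 were lower on both, 6 risers failed the test on the leukocyte scale, and 8 risers were called lower on it. The NC and KD libraries did not overlap for 35 of the 38 tested chains in CPM on the scale of all genes and for 31 on the leukocyte scale, where 78.0% and 88.2% of all tested genes did not overlap.

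**Figure D1:**
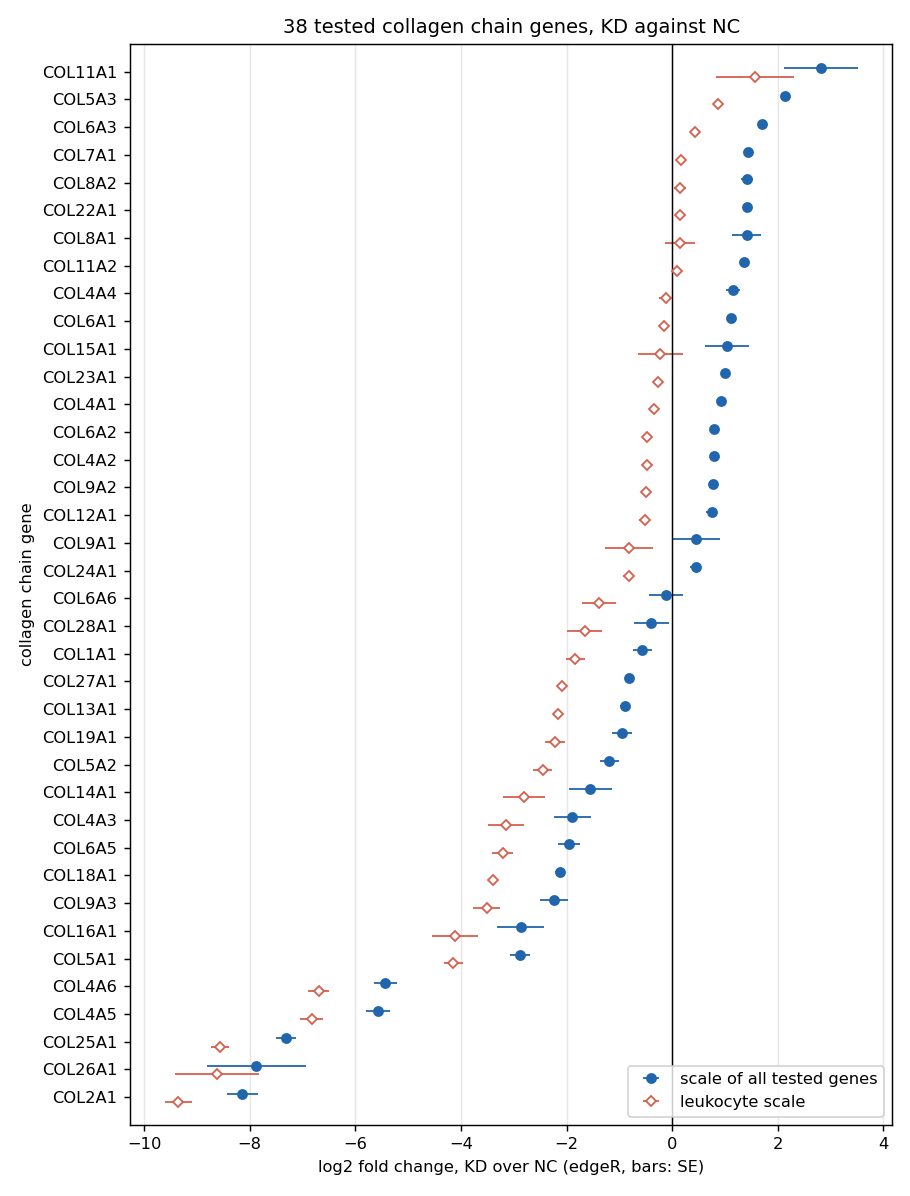
Log2 fold change (x axis, KD over NC, edgeR, bars are SE) of the 38 tested collagen chain genes (y axis), with filled circles for the scale of all tested genes and open diamonds for the leukocyte scale. COL5A3 lies right of zero on both scales (2.14 and 0.87), COL4A1 changes side (0.92 and -0.35), and COL2A1 and COL25A1 lie far to the left on both.

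Summed over all 44 genes, collagen chains took 0.134%, 0.137% and 0.132% of all counts in the NC libraries and 0.239%, 0.244% and 0.241% in the KD libraries. The summed level was 1259 ± 6.63 CPM in NC and 2574 ± 34.2 CPM in KD, but on the leukocyte scale the order turned, at 1954 ± 12.7 and 1658 ± 21.7 CPM. COL6A1, COL9A2, COL4A2, COL6A2 and COL4A1, which hold much of the sum, were called higher on the first scale and lower on the second. The number of chains with at least 1 count was 42 to 44 in the NC libraries and 40 to 42 in the KD libraries.

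**Figure D2:**
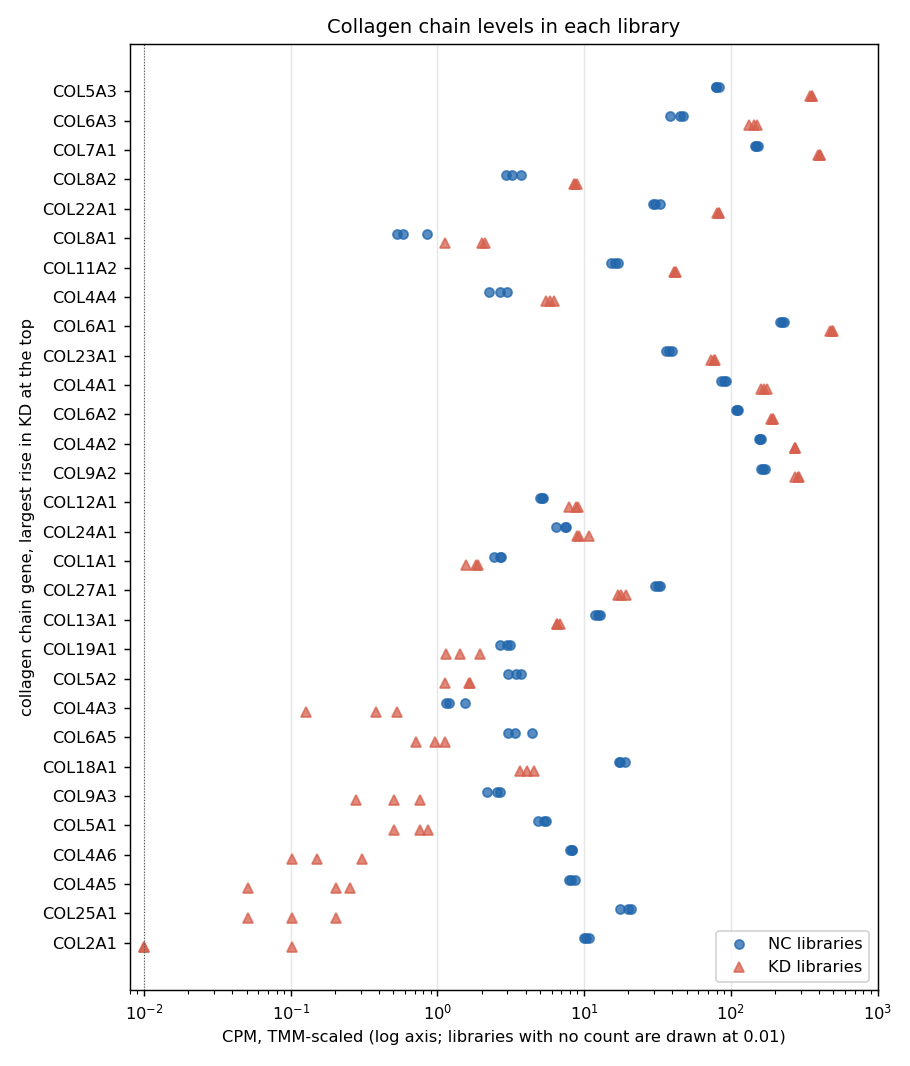
Level in each library (x axis, TMM-scaled CPM on a log axis) of the 30 called chains that reached 1 CPM in either group (y axis, ordered by log2 fold change), with circles for NC and triangles for KD libraries; libraries with no count are drawn at 0.01. The circles and triangles of each chain separate, to the right in KD for COL5A3 (348 to 357 against 78.9 to 83.6 CPM) and to the left for COL2A1 (0 to 0.101 against 9.93 to 10.9 CPM).

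Collagen IV, the network collagen of basement membranes, has 6 chain genes in 3 head-to-head pairs, and the pairs did not move alike: 3 chains rose and 3 fell, while on the leukocyte scale none was called higher and 5 were called lower. The shares of all tested genes were 36.2% higher and 40.3% lower (2.82% and 85.0% on the leukocyte scale). COL4A1 (chr13:110148963-110307157, minus strand, GRCh38 as in the deposited table) and COL4A2 (chr13:110305812-110513209, plus strand) encode the chains of the most widespread collagen IV trimer. COL4A1 stood at 92.3, 85.4 and 89.8 CPM in the NC libraries and 178, 168 and 159.6 CPM in the KD libraries (log2 fold change 0.92, SE 0.045, edgeR adjusted p = 1.68e-15). COL4A2 stood at 161, 156 and 158 CPM in NC and 275, 273 and 273 CPM in KD (log2 fold change 0.79, SE 0.039, edgeR adjusted p = 1.97e-15). All KD libraries were above all NC libraries for both genes, but both were called lower on the leukocyte scale (-0.35 and -0.48). Per kilobase of exon, COL4A1 was at 0.739 ± 0.0191 of COL4A2 in NC and 0.808 ± 0.0394 in KD, a ratio within each library that no scale moves. The exon length is that of the deposited table for the whole gene, which can exceed that of the transcripts made. The size of a ratio between genes, here and below, depends on it, while its relative change from NC to KD does not.

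The stretches between paired genes are shown because, on the scale of all tested genes, the chains of the first pair rose together, those of the third fell together, and those of the second parted. In the exons of the deposited table, 100 bases separate COL4A1 from the next exon of COL4A2 (another COL4A2 exon lies inside the span of COL4A1), 170 separate COL4A4 from COL4A3 and 340 separate COL4A6 from COL4A5. Sequences are from RefSeq promoter windows (GRCh38.p14), 5′ to 3′ on the plus strand, and capitals mark matches on either strand to a GC box (GGGCGG) or a CCAAT box (CCAAT), none overlapping another. The whole first and second stretches and the 250 bases before COL4A5 are
COL4A1 to COL4A2, chr13:110307158-110307257: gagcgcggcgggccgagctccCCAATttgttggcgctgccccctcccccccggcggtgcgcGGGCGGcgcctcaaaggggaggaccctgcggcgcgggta
COL4A4 to COL4A3, chr2:227164454-227164623: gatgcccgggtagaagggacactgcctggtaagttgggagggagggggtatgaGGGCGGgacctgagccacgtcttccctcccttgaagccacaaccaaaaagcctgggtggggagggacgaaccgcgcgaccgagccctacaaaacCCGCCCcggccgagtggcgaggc
before COL4A5, chrX:108439588-108439837: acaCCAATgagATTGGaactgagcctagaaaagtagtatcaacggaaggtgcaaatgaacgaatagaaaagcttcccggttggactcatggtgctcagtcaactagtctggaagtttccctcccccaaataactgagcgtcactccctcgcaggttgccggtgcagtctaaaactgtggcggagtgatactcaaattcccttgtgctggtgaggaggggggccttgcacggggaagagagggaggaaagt
The first holds 1 GC box and 1 CCAAT box at 78.0% G and C, the second 2 GC boxes at 65.9%, and the third 2 CCAAT boxes at 51.2%. Over all 35116 RefSeq windows of 250 bases before a gene start, 42.6% held a GC box and 32.0% a CCAAT box. Of the 44 windows of 32 collagen chains, 54.5% held a GC box and 27.3% a CCAAT box. A TATA box (TATAAA, either strand) was found in 18.2% of the collagen windows and 10.7% of all, and the AP-1 letters TGANTCA (either strand) in 2.27% and 6.57%. Letters in a window are a description and show no binding.

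COL4A4 and COL4A3, chains of the trimer typical of kidney filter and lung basement membranes, lie on either side of the second stretch. COL4A4 (chr2:227002714-227164453, minus strand) stood at 2.65, 2.24 and 2.96 CPM in NC and 5.81, 6.22 and 5.52 CPM in KD (log2 fold change 1.15, SE 0.14, edgeR adjusted p = 3.07e-08; leukocyte scale -0.11, not passed). COL4A3 (chr2:227164624-227314792, plus strand) stood at 1.54, 1.15 and 1.19 CPM in NC and 0.381, 0.127 and 0.532 CPM in KD (log2 fold change -1.89, SE 0.35, edgeR adjusted p = 2.76e-05; leukocyte scale -3.15). The pair thus moved in opposite directions across that stretch on the scale of all tested genes, and the ratio of COL4A4 to COL4A3 per kilobase went from 2.13 ± 0.404 to 25.8 ± 21.7, with 5 to 21 COL4A3 counts in a KD library behind the latter. COL4A3 shares 838 exon bases, 6.82% of its exon length, with MFF-DT on the opposite strand, and the labels and file do not tell whether counting used the strand.

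COL4A5 (chrX:108439838-108697545, plus strand) and COL4A6 (chrX:108155607-108439497, minus strand) are the X-linked pair, whose products combine in basement membranes of skin, smooth muscle and kidney. COL4A5 fell from 8.67, 8.09 and 7.83 CPM in the NC libraries to 0.254, 0.0510 and 0.202 CPM in the KD libraries (log2 fold change -5.57, SE 0.23, edgeR adjusted p = 4.00e-17). COL4A6 fell from 8.22, 8.26 and 8.05 CPM to 0.305, 0.102 and 0.152 CPM (log2 fold change -5.43, SE 0.21, edgeR adjusted p = 2.00e-17). Both stayed lower on the leukocyte scale (-6.83 and -6.69). Counts in a KD library were 2 to 10 for COL4A5 and 4 to 12 for COL4A6, so their ratio in KD (0.695 ± 0.328 per kilobase, against 0.784 ± 0.0357 in NC) rests on few reads. The fall of this pair went with that of the embryonic kidney and neuronal-type and epithelial markers given above, and their part in it was not tested.

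Collagen VI, the beaded filament collagen of the pericellular matrix, was the most abundant class, with 30.3% ± 0.600 of collagen counts in NC and 31.8% ± 0.342 in KD. Its main trimer takes 1 chain each from COL6A1, COL6A2 and COL6A3, and all 3 rose on the scale of all tested genes. COL6A1 (chr21:45981770-46005050, plus strand) stood at 215, 231 and 222 CPM in NC and 472, 494 and 486 CPM in KD (log2 fold change 1.12, SE 0.042, edgeR adjusted p = 7.80e-18). Its neighbour COL6A2 (chr21:46098112-46132848, plus strand) stood at 109, 111 and 111 CPM in NC and 187, 194 and 194 CPM in KD (log2 fold change 0.80, SE 0.039, edgeR adjusted p = 1.88e-15). COL6A3 (chr2:237324003-237414328, minus strand), the long chain that is recruited last into the trimer, stood at 45.3, 38.8 and 47.1 CPM in NC and 151, 144 and 132 CPM in KD (log2 fold change 1.70, SE 0.062, edgeR adjusted p = 1.34e-14). On the leukocyte scale only COL6A3 of these 3 was called higher (0.43), while COL6A1 (-0.15) and COL6A2 (-0.47) were called lower.

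The 3 main chains of collagen VI were not at equal levels per exon length of the deposited table, on which the size of each ratio depends. COL6A1 was at 19.99 ± 2.78 times COL6A3 in NC and 13.2 ± 1.04 times in KD, and COL6A2 at 10.3 ± 1.09 and 5.45 ± 0.454 times. COL6A1 was at 1.95 ± 0.0622 times COL6A2 in NC and 2.43 ± 0.0234 times in KD. The libraries of the groups did not overlap in any of these 3 ratios. The alternative chain gene COL6A5 (chr3:130345516-130484846, plus strand) was lower in KD, at 4.43, 3.36 and 3.01 CPM in NC and 1.12, 0.969 and 0.709 CPM in KD (log2 fold change -1.95, SE 0.21, edgeR adjusted p = 5.78e-09; leukocyte scale -3.21). COL6A6, another alternative chain, held 37, 23 and 30 counts in NC and 28, 30 and 18 in KD and did not pass (log2 fold change -0.12, edgeR adjusted p = 0.742). It was called lower on the leukocyte scale (-1.39).

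COL7A1 (chr3:48564073-48595329, minus strand) encodes collagen VII, the anchoring fibril that ties the epidermal basement membrane to the dermis, and was among the most abundant chains here. It stood at 152, 146 and 149 CPM in the NC libraries and 408, 408 and 391 CPM in the KD libraries (log2 fold change 1.43, SE 0.041, edgeR adjusted p = 3.80e-20; leukocyte scale 0.17, called higher). All KD libraries lay well above all NC libraries. Collagen VII made up 11.8% ± 0.203 of collagen counts in NC and 15.6% ± 0.206 in KD. It shares 36 exon bases, 0.323% of its exon length, with the microRNA gene MIR711 on the same strand.

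COL5A3 (chr19:9959561-10010504, minus strand), a chain of the fibril-nucleating collagen V, had the largest rise of the 30 called chains that reached 1 CPM. It stood at 83.6, 79.0 and 78.9 CPM in NC and 357, 355 and 348 CPM in KD (log2 fold change 2.14, SE 0.042, edgeR adjusted p = 3.59e-23; leukocyte scale 0.87, edgeR adjusted p = 4.85e-16). All 3 KD libraries lay far above all 3 NC libraries, and its share of collagen counts went from 6.39% ± 0.179 to 13.7% ± 0.0987. Against COL6A1, per kilobase and within each library, it rose from 0.295 ± 0.0198 to 0.597 ± 0.0181. A gene on the opposite strand, ENSG00000267650, shares 270 of its exon bases, 3.98% of its exon length, and also had more counts in KD (108 to 128 in NC, 428 to 507 in KD). The 250 bases before the starts of COL5A3 and COL7A1 are shown as the promoter windows of the most abundant chains called higher on both scales, on their own (minus) strand, with capitals marking GC, CCAAT and TATA boxes as above:
before COL5A3, chr19:10010505-10010754: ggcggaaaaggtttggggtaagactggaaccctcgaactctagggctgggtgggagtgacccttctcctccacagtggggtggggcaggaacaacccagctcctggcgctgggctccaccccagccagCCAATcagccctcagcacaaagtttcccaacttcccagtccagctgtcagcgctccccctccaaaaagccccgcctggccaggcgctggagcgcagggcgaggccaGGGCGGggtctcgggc
before COL7A1, chr3:48595330-48595579: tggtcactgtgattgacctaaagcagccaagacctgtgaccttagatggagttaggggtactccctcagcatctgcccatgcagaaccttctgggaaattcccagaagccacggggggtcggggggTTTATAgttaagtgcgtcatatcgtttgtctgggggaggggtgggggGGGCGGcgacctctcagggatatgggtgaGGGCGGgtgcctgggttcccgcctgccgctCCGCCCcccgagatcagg
The COL5A3 window holds 1 GC box and 1 CCAAT box, and the COL7A1 window holds 3 GC boxes and 1 TATA box. Neither holds TGANTCA.

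The other chains of collagen V moved the opposite way. COL5A1 (chr9:134641803-134844843, plus strand), the chain present in nearly all collagen V, fell from 5.52, 4.87 and 5.35 CPM in NC to 0.508, 0.765 and 0.861 CPM in KD (log2 fold change -2.88, SE 0.19, edgeR adjusted p = 4.22e-13; leukocyte scale -4.15). COL5A2 (chr2:189031898-189225312, minus strand), its usual partner, fell from 3.70, 3.02 and 3.41 CPM to 1.68, 1.12 and 1.65 CPM (log2 fold change -1.19, SE 0.18, edgeR adjusted p = 2.25e-06; leukocyte scale -2.45). COL5A3 was thus at 25.3 ± 1.3 times COL5A1 per kilobase in NC and at 862 ± 260.3 times in KD, and at 25.9 ± 2.05 and 267 ± 65 times COL5A2.

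Of the 11 fibrillar chain genes 9 were tested, and 4 were higher and 5 lower in KD (1 and 6 on the leukocyte scale). The shares of all tested genes were 36.2% and 40.3% (2.82% and 85.0% on the leukocyte scale). COL11A2 (chr6:33162681-33192499, minus strand), a cartilage fibril chain, stood at 15.3, 16.2 and 17.1 CPM in NC and 42.5, 41.1 and 41.7 CPM in KD (log2 fold change 1.37, SE 0.058, edgeR adjusted p = 9.72e-17; leukocyte scale 0.10, not passed). COL2A1 (chr12:47972967-48004554, minus strand), the main collagen of cartilage, stood at 9.93, 10.9 and 10.4 CPM in NC and 0, 0 and 0.101 CPM in KD (log2 fold change -8.14, SE 0.29, edgeR adjusted p = 2.92e-18; leukocyte scale -9.36). In counts, COL2A1 had 419, 446 and 469 in the NC libraries and 0, 0 and 4 in the KD libraries, so a pair of KD libraries had none. COL11A1, the partner of COL11A2 in collagen XI, had 8, 0 and 0 counts in NC and 24, 14 and 16 in KD, and its rise (log2 fold change 2.81, SE 0.70, edgeR adjusted p = 9.77e-04) rests on these few counts. It did not pass with DESeq2 (adjusted p = 0.103) or on the leukocyte scale (1.58, edgeR adjusted p = 0.0509), and without NC replicate 1 the fitted value was 7.23, with no NC count left. Of 8 listed cartilage and bone markers 5 were tested, and 2 were higher and 3 lower (1 and 4 on the leukocyte scale). Their summed level was 9.21 to 10.7 CPM in NC and 12.9 to 14.3 CPM in KD, with ACAN, the cartilage proteoglycan gene, near 0 in both groups (0.312 ± 0.231 to 0.0339 ± 0.0294 CPM). The 2 higher were RUNX2 (5.24 ± 0.156 to 9.19 ± 0.965 CPM) and IBSP (0.197 ± 0.174 to 2.17 ± 0.409 CPM). The 3 lower were SOX9 (2.56 ± 0.324 to 1.62 ± 0.150 CPM), MATN1 (0.538 ± 0.0409 to 0.288 ± 0.102 CPM) and MATN3 (0.654 ± 0.0172 CPM in NC, no count in KD). On the leukocyte scale, RUNX2 was called lower (-0.46) and IBSP higher (2.15). The part of these markers in the collagen values was not tested.

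The classic fibril chains of connective tissue were scarce. COL1A1 (chr17:50184101-50201632, minus strand), the main chain of collagen I, stood at 2.65, 2.73 and 2.43 CPM in NC and 1.88, 1.84 and 1.57 CPM in KD (log2 fold change -0.56, SE 0.17, edgeR adjusted p = 0.00499; leukocyte scale -1.83). COL1A2, its partner chain, had 6, 2 and 8 counts in NC and 7, 4 and 2 in KD, and COL3A1, the collagen III chain of elastic tissues, had 12, 4 and 6 and 4, 12 and 4, so neither entered the test. The fibroblast markers DCN, LUM, THY1 and TCF21 were each under 0.2 CPM in both groups, and LUM and TCF21 had no count in KD. The summed level of the 12 fibroblast and mesenchymal markers was 53.4 to 56.0 CPM in NC and 125 to 128 CPM in KD. Its largest part was PDGFRA (21.7 ± 0.535 to 101 ± 0.425 CPM), a growth factor receptor gene. Of 8 tested markers, 4 were higher and 3 lower (1 and 5 on the leukocyte scale). Beside PDGFRA, the higher were PDGFRB, FAP and TWIST1. The lower were FBLN1 (8.17 ± 1.31 to 0.203 ± 0.0888 CPM), ACTA2 (4.77 ± 0.343 to 0.0930 ± 0.0729 CPM) and PRRX1 (4.74 ± 0.456 to 2.70 ± 0.435 CPM). On the leukocyte scale, PDGFRA was called higher (0.95), PDGFRB and FAP did not pass (0.15 and 0.23), and TWIST1 was called lower (-0.75). COL24A1 (chr1:85729233-86156943, minus strand), a fibrillar chain of bone and cornea, stood at 7.35, 6.43 and 7.56 CPM in NC and 10.9, 8.998 and 9.19 CPM in KD (log2 fold change 0.44, SE 0.10, edgeR adjusted p = 3.62e-04), and was called lower on the leukocyte scale (-0.83). COL27A1 (chr9:114155537-114312511, plus strand), a fibrillar chain of growing cartilage, fell from 32.6, 30.6 and 31.7 CPM to 17.0, 19.2 and 17.9 CPM (log2 fold change -0.81, SE 0.062, edgeR adjusted p = 1.20e-11; leukocyte scale -2.08).

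Among FACIT collagens, which decorate fibrils and carry interrupted helices, 3 of 8 tested chains were higher, 4 lower and 1 did not pass (1, 6 and 1 on the leukocyte scale). Over all tested genes 36.2% were higher and 40.3% lower (2.82% and 85.0% on the leukocyte scale). COL9A2 (chr1:40300489-40317813, minus strand), a collagen IX chain best known from cartilage, was the second most abundant chain per exon length in both groups. It stood at 166, 172 and 161 CPM in NC and 275, 291 and 285 CPM in KD (log2 fold change 0.77, SE 0.041, edgeR adjusted p = 1.01e-14), and was called lower on the leukocyte scale (-0.50). Its partners were scarce. COL9A3 (chr20:62816244-62841159, plus strand) fell from 2.18, 2.53 and 2.65 CPM to 0.508, 0.765 and 0.278 CPM (log2 fold change -2.24, SE 0.26, edgeR adjusted p = 2.94e-08; leukocyte scale -3.51), and COL9A1 had 8, 8 and 20 counts in NC and 17, 18 and 10 in KD and did not pass (log2 fold change 0.45, edgeR adjusted p = 0.373). COL9A2 was therefore at 78.2 ± 8.90 times COL9A3 per kilobase in NC and 745 ± 385 times in KD. COL9A3 shares 3.20% of its exon length with TCFL5 on the opposite strand.

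The other FACIT chains spread in both directions. COL22A1, a collagen of tissue junctions such as that of muscle and tendon, stood at 29.3, 32.8 and 30.2 CPM in NC and 80.8, 82.9 and 82.8 CPM in KD (log2 fold change 1.42, SE 0.049, edgeR adjusted p = 1.15e-18). It was the last of the 4 chains called higher on the leukocyte scale as well (0.15). COL12A1 (chr6:75084326-75206267, minus strand), found on fibrils of dense connective tissue, stood at 5.12, 5.02 and 5.22 CPM in NC and 9.14, 8.79 and 7.90 CPM in KD (log2 fold change 0.75, SE 0.10, edgeR adjusted p = 4.66e-07; leukocyte scale -0.52, called lower). COL19A1 (chr6:69866556-70212468, plus strand), a chain found near basement membranes, fell from 3.10, 2.68 and 2.99 CPM to 1.95, 1.43 and 1.14 CPM (log2 fold change -0.96, SE 0.19, edgeR adjusted p = 8.31e-05; leukocyte scale -2.22). COL14A1 and COL16A1, a pair of fibril-associated chains below 1 CPM, were lower on both scales, with 26, 25 and 26 and 29, 47 and 37 counts in NC and 10, 8 and 6 and 3, 8 and 3 in KD. Their log2 fold changes were -1.55 (SE 0.40) and -2.86 (SE 0.45). COL16A1 shares 114 exon bases with a row named Y_RNA on the same strand, which held 391 to 447 counts in NC and 421 to 485 in KD. It also shares 117 with PEF1-AS1 on the opposite strand (20 to 35 counts in NC, 8 to 14 in KD).

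The short-chain collagen VIII, which forms hexagonal networks under endothelium and is made by macrophages, rose in both of its chains on the scale of all tested genes, while neither passed on the leukocyte scale (0.15 for COL8A1 and 0.15 for COL8A2). COL8A1 (chr3:99638475-99799226, plus strand) stood at 0.853, 0.585 and 0.531 CPM in NC and 2.11, 1.12 and 2.02 CPM in KD (log2 fold change 1.42, SE 0.28, edgeR adjusted p = 5.99e-05). COL8A2 (chr1:36095239-36125222, minus strand) stood at 3.20, 3.70 and 2.92 CPM in NC and 8.96, 8.72 and 8.58 CPM in KD (log2 fold change 1.42, SE 0.12, edgeR adjusted p = 4.11e-11). The ratio of COL8A2 to COL8A1 per kilobase was 10.5 ± 2.66 in NC and 10.9 ± 4.10 in KD, and the libraries of the groups overlapped in it. The endothelial markers were also higher (all 5 tested of 7 listed on the first scale, 1 on the leukocyte scale), at a summed level of 2.61 to 3.23 CPM in NC and 7.06 to 8.56 CPM in KD. Their defining gene CDH5 had no count in NC and 6 counts in KD, all in KD replicate 2, and CLDN5 had 6 counts in each group. Neither gene was tested. The part of these markers in the collagen VIII values was not tested.

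Transmembrane collagens are anchored in the plasma membrane by an uncleaved segment and are shed from the cell surface. COL23A1 (chr5:178237476-178590393, minus strand) stood at 39.9, 38.1 and 36.2 CPM in NC and 76.9, 78.6 and 72.8 CPM in KD (log2 fold change 1.00, SE 0.048, edgeR adjusted p = 1.23e-15), and was called lower on the leukocyte scale (-0.27). COL13A1 (chr10:69801880-69964275, plus strand), the collagen of the neuromuscular junction, fell from 11.9, 12.4 and 12.8 CPM to 6.85, 6.58 and 6.53 CPM (log2 fold change -0.89, SE 0.087, edgeR adjusted p = 1.28e-09; leukocyte scale -2.16). COL25A1 (chr4:108808725-109302752, minus strand), a neuronal collagen that binds amyloid beta, fell from 19.8, 17.5 and 20.8 CPM to 0.102, 0.0510 and 0.202 CPM (log2 fold change -7.31, SE 0.19, edgeR adjusted p = 6.69e-21; leukocyte scale -8.57). It had 834, 716 and 940 counts in the NC libraries and 4, 2 and 8 in the KD libraries, so that its level in KD rests on 14 counts. The neurofilament genes NEFM and NEFL, on the embryonic kidney and neuronal-type list, fell with it (-11.99 and -9.19), and their part in its fall was not tested.

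The multiplexins are the basement membrane collagens whose tails yield endostatin and a like fragment. COL18A1 (chr21:45405165-45513720, plus strand), the source of endostatin, fell from 18.9, 17.5 and 17.4 CPM in NC to 4.57, 4.05 and 3.67 CPM in KD (log2 fold change -2.13, SE 0.094, edgeR adjusted p = 1.93e-16; leukocyte scale -3.40). SLC19A1, a folate carrier gene on the opposite strand, shares 1563 bases, 18.5% of the exon length of COL18A1, and its own counts were 441, 417 and 431 in NC and 124, 111 and 136 in KD. Reads of the overlap cannot be told apart without strand. COL15A1, the other multiplexin, had 14, 6 and 17 counts in NC and 33, 19 and 18 in KD. Its rise on the scale of all tested genes was narrow (log2 fold change 1.04, SE 0.41, edgeR adjusted p = 0.0265) and did not pass without NC replicate 2 (log2 fold change 0.73, adjusted p = 0.138) or without KD replicate 1 (0.71, adjusted p = 0.187), nor on the leukocyte scale (-0.22).

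COL26A1, a collagen of testis and ovary, had 22, 40 and 29 counts in the NC libraries and none in the KD libraries. Its mean NC level was 28.1 times a floor of 3 counts over the KD group. That floor takes each count as a separate fragment and leaves out the spread of the NC libraries, so 28.1 is not a firm lower bound. COL28A1, a collagen of peripheral nerve, had 30, 36 and 34 counts in NC and 24, 32 and 14 in KD and did not pass (log2 fold change -0.39, edgeR adjusted p = 0.280; leukocyte scale -1.66, called lower). Schwann and neural crest markers gave 1 higher and 2 lower of 4 tested (0 and 2 on the leukocyte scale), with a summed level of 9.44 to 10.8 CPM in NC and 5.08 to 5.99 CPM in KD. Beside COL1A2 and COL3A1, 4 chains had too few counts to be tested. They were COL10A1 of growth plate cartilage (8, 0 and 0 counts in NC, 6, 0 and 0 in KD), COL17A1 of hemidesmosomes (16, 9 and 6 and 2, 10 and 7), the FACIT chains COL20A1 (4, 6 and 8 and 0, 0 and 1) and COL21A1 (12, 8 and 24 and 8, 4 and 8). Most small counts were even in these libraries (67.8% to 70.3% of the counts from 1 to 20), a pattern that counting each read of a pair would give, so a count of 10 may stand for fewer than 10 fragments.

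Ranked by CPM per kilobase of exon, the top of the order was COL6A1 (40.2 ± 1.48) and COL9A2 (39.4 ± 1.36) in NC, whose libraries overlapped, then COL6A2 (20.7 ± 0.216), COL7A1 (13.4 ± 0.285) and COL5A3 (11.9 ± 0.395). In KD the order was COL6A1 (87.4 ± 1.96), COL9A2 (67.3 ± 1.84), COL5A3 (52.1 ± 0.704), and then COL7A1 (36.1 ± 0.892) and COL6A2 (35.9 ± 0.742), whose libraries overlapped. COL5A3 had moved from the fifth place to the third. COL23A1, COL4A2, COL4A1 and COL22A1 followed in that order in both groups, and only COL23A1 and COL4A2 in NC overlapped among these. COL27A1 was the tenth in NC, at 2.26 ± 0.0740, where COL25A1, COL11A2 and COL18A1 lay within overlapping reach of their neighbours. In KD the tenth was COL6A3, at 6.62 ± 0.430. The order rests on the exon lengths of the deposited table, which need not be those of the transcripts made.

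**Figure D3:**
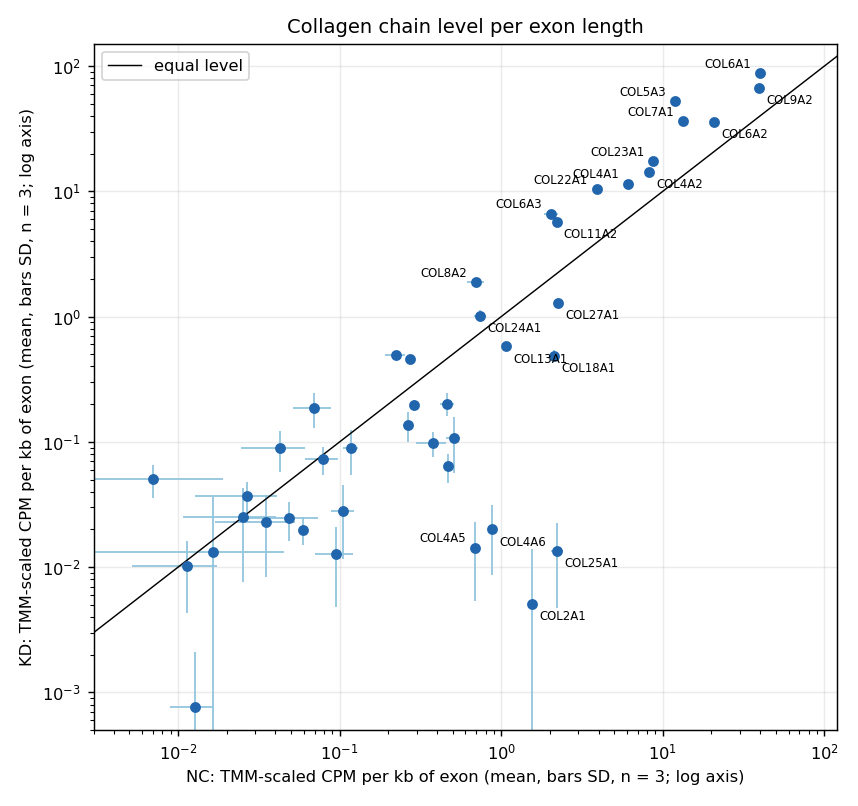
Level per exon length in NC (x axis) and KD (y axis), both TMM-scaled CPM per kilobase on log axes, with mean and SD over 3 libraries, for the 43 chains with a mean above 0 in both groups; COL26A1 is not drawn. Names are given from 0.65 CPM per kilobase in either group. The 9 highest chains in KD all lie above the line of equal level, and COL2A1, COL25A1, COL4A5 and COL4A6 lie far below it.

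By class, the share of collagen counts was larger in KD for the anchoring fibril and for the fibrillar class, where COL5A3 carried the rise. Fibrillar chains took 12.5% ± 0.238 of collagen counts in NC and 16.6% ± 0.141 in KD. Collagen IV took 21.3% ± 0.426 and 17.4% ± 0.320, FACIT chains 16.7% ± 0.579 and 14.7% ± 0.330, and transmembrane chains 5.56% ± 0.125 and 3.22% ± 0.0724. Multiplexins took 1.45% ± 0.0602 and 0.182% ± 0.0244. The libraries of the groups did not overlap in any of these 5 shares, which do not depend on the scale. Within the fibrillar class, COL5A3 held 6.39% of collagen counts in NC and 13.7% in KD, a larger difference than that of the whole class. The other fibrillar chains together thus held a smaller share in KD. COL6A1 remained the single largest chain, at 17.7% ± 0.729 and 18.8% ± 0.448, with a highest NC library of 18.4% and a lowest KD library of 18.3%.

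**Figure D4:**
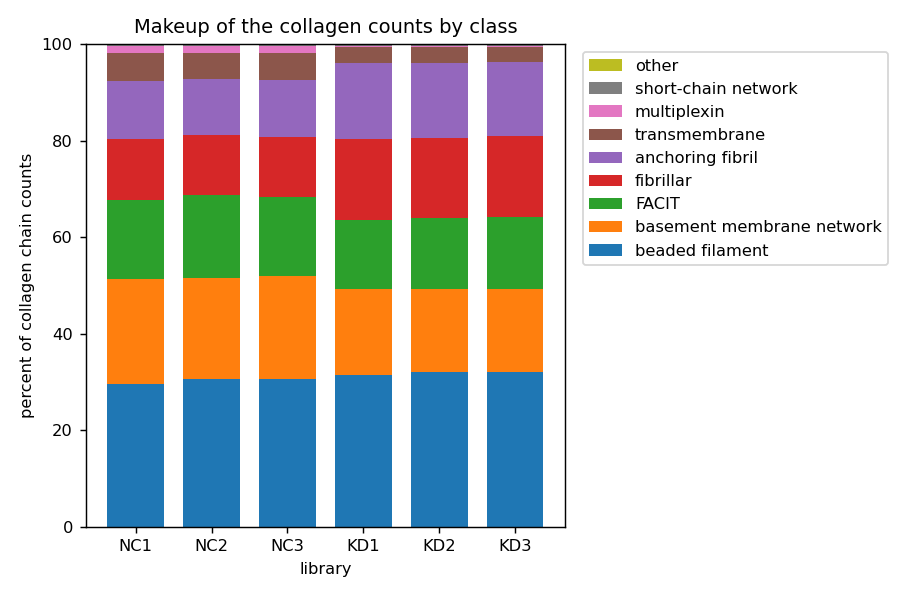
Percent of collagen chain counts (y axis) by class in each library (x axis, NC and KD replicates), stacked to 100; the short-chain and remaining chains are too few to see. Fibrillar chains widen from 12.3% to 12.7% in the NC libraries to 16.5% to 16.8% in the KD libraries, and the basement membrane network narrows from 20.8% to 21.7% to 17.2% to 17.8%.

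The genes that make and handle collagen outside the chain family were read from 6 lists, and every gene named below passed the edgeR test. Values are mean CPM from NC to KD, with the log2 fold change in brackets. Calls were common over all tested genes, at 36.2% higher and 40.3% lower (2.82% and 85.0% on the leukocyte scale), and each list is to be read beside these shares. Of 23 genes for modification and folding in the endoplasmic reticulum, all tested, 10 were higher, 11 lower and 2 did not pass, with a median log2 fold change of -0.17 against -0.05 for all tested genes. FKBP10, a collagen prolyl isomerase, fell from 58.3 ± 2.69 to 0.254 ± 0.0517 CPM (-7.83), and the prolyl 3-hydroxylase P3H3 and its partner P3H4 fell from 11.8 ± 0.311 to 0.186 ± 0.125 CPM (-5.96) and from 13.3 ± 1.08 to 0.440 ± 0.192 CPM (-4.91). P3H2, which hydroxylates collagen IV, rose from 36.0 ± 2.24 to 137 ± 2.81 CPM (1.93) and was the only member called higher on the leukocyte scale (0.66), where the other 22 were called lower. Of 14 genes for processing and cross-linking 13 were tested, with 2 higher and 10 lower (1 and 12 on the leukocyte scale) and a median of -1.16. BMP1, the procollagen C-proteinase, rose from 49.6 ± 1.39 to 136 ± 3.59 CPM (1.45; leukocyte scale 0.18), and the N-proteinase ADAMTS2 from 16.9 ± 0.997 to 37.1 ± 0.761 CPM (1.13), although it was called lower on the leukocyte scale (-0.14). PXDN, the peroxidase that joins collagen IV by sulfilimine bonds, fell from 7.50 ± 0.430 to 0.0169 ± 0.0293 CPM (-8.55), and ADAMTS3, another N-proteinase, from 5.02 ± 0.316 to 0.313 ± 0.0399 CPM (-3.99). LOXL1, a cross-linking oxidase, had no count in KD.

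On the receiving side, 7 of 10 tested collagen receptors were higher and 2 lower (1 and 6 on the leukocyte scale), with a median log2 fold change of 0.83. For these and the proteases below, the shares of all tested genes were 36.2% higher and 40.3% lower (2.82% and 85.0% on the leukocyte scale). The integrin chains ITGB1, ITGA1 and ITGA2, which pair into collagen-binding receptors, rose from 355 ± 7.54 to 858 ± 8.70 CPM, from 108 ± 1.37 to 227 ± 6.89 CPM and from 8.26 ± 0.251 to 23.6 ± 0.694 CPM (log2 fold changes 1.27, 1.07 and 1.52). Of these, ITGA2 was called higher on the leukocyte scale (0.25), ITGB1 did not pass (0.00) and ITGA1 was called lower (-0.20). DDR2, a receptor tyrosine kinase for fibrillar collagen, fell from 19.1 ± 1.98 to 5.38 ± 0.553 CPM (-1.83). Collagen-cleaving proteases gave 6 higher and 3 lower of 9 (2 and 4 on the leukocyte scale), with a median of 1.20. The collagenases MMP8 and MMP1 rose from 80.1 ± 3.31 to 312 ± 5.06 CPM (1.96) and from 604 ± 23.2 to 1944 ± 42.3 CPM (1.69) and were called higher on the leukocyte scale too (0.69 and 0.42). MMP14, a membrane-bound collagenase, and MMP9, a gelatinase, rose by 1.20 and 1.23 on the log2 scale and were not called on the leukocyte scale (-0.07 and -0.04).

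Matrix proteins that bind collagen went in both directions, with 8 higher and 11 lower of 19 tested (3 and 13 on the leukocyte scale) and a median log2 fold change of -0.63. All tested genes gave 36.2% higher and 40.3% lower (2.82% and 85.0% on the leukocyte scale). FN1, fibronectin, rose from 88.0 ± 1.57 to 338 ± 6.87 CPM (1.94; leukocyte scale 0.67) and SPP1, osteopontin, from 406 ± 8.65 to 1160.4 ± 16.7 CPM (1.51; leukocyte scale 0.24). LAMB1 and LAMB2, beta chains of the laminins that lie beside collagen IV in basement membranes, fell from 80.5 ± 1.11 to 13.1 ± 0.840 CPM (-2.62) and from 32.5 ± 1.67 to 1.54 ± 0.205 CPM (-4.40). Among proteins with a collagen domain outside the chain family, 5 of 15 tested were higher, 6 lower and 4 did not pass (leukocyte scale: 2 higher, 10 lower), with a median of -0.35. The macrophage scavenger receptors MSR1 and MARCO rose from 47.0 ± 1.11 to 111 ± 1.55 CPM (1.23; leukocyte scale -0.04, not passed) and from 7.56 ± 0.810 to 28.8 ± 0.315 CPM (1.93; leukocyte scale 0.66, called higher). COLEC12 and SCARA3, other genes of the scavenger receptor family, fell from 13.3 ± 0.757 to 0.609 ± 0.181 CPM (-4.44) and from 4.34 ± 0.973 to 0.119 ± 0.0776 CPM (-5.16).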

How the data were processed

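RNA was taken from PMA-treated THP-1 cells and sequenced on a DNBSEQ-T7 instrument, per the labels' protocols. Per the submitters' processing notes, fastp 0.23.0 and the genome build GRCh38 were used. Neither labels nor files name the aligner, the counter, the annotation release or the use of strand. The authors' deposited table holds raw counts per gene, with exon coordinates and exon length, another unit, in bases.

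The test was that of edgeR 4.0.16 (R 4.3.3; quasi-likelihood, robust, TMM, filterByExpr, two-sided, Benjamini-Hochberg adjusted p of 0.05 over 21905 genes), on the 3 NC and 3 KD libraries with no covariate. CPM values are TMM-scaled. Each SE was taken as log2 fold change over the square root of F. Steps were tested on simulated data. Alternatives included DESeq2 1.42.0, limma-voom (limma 3.58.1) and other scales, filters and subsets. Replicates of a group differed beyond the sampling noise of independent counts (chi-square per gene 3.22 to 6.38), a noise that counting each read of a pair would raise. Floors and counts cover counting error only.

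Values per library are given for called chains that reached 1 CPM in either group, and up to 4 called members with the smallest p are named per list; LOXL1 was added after its values were seen. The collagen genes, the lists, the markers and the leukocyte scale were chosen with earlier results of these data known. Promoter windows are RefSeq's (GRCh38.p14), of which 32 of 44 chains had at least 1. The planned protein features were not analysed here.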

Additional observations from a re-analysis of the deposited data

How the results depend on the processing

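The counts of collagen chains called, 18 higher and 17 lower, depended on the scale. On the leukocyte scale they were 4 and 27, and genes called over the whole table went from 7934 higher and 8824 lower to 617 and 18611. Other alternatives kept each of these counts within 1.5 times, and leaving out each library in turn gave 17 to 18 chains higher and 17 to 18 lower. The median log2 fold change of the tested chains (0.16) sits in a gap between risers and fallers and changed sign readily: it was -0.025 with library sizes alone, -1.11 on the leukocyte scale, -0.24 with no filter on low counts, 0.73 for genes with a mean of at least 1 CPM, -0.40 with counts divided by 2, and -0.29 to 0.081 when each library was left out. No filter and the stricter filters change which chains enter it.

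Of the 38 tested chains, 11 changed sign on the leukocyte scale: COL4A1 (-0.35), COL4A2 (-0.48), COL4A4 (-0.11), COL6A1 (-0.15), COL6A2 (-0.47), COL9A1 (-0.81), COL9A2 (-0.50), COL12A1 (-0.52), COL15A1 (-0.22), COL23A1 (-0.27) and COL24A1 (-0.83). COL6A6, which was not called, ran from -0.26 to 0.081 over the left-out libraries, above 0 without NC replicate 1 (0.063) and without KD replicate 3 (0.081). COL15A1 also lost its call with library sizes alone (adjusted p = 0.0649) and at an adjusted p of 0.01, and COL11A1 with DESeq2; without NC replicate 1 the latter's fitted value was 7.23, in place of 2.81. No other chain changed its call or sign under the remaining alternatives, among the chains each of them tested. The cause was not tested. The labels do not say whether the replicate numbers of NC and KD pair the libraries. Same-number correlations of deviations were 0.03, 0.02 and -0.05, too few values to tell. With the number as a replicate block, 18 chains were higher and 17 lower, with a median of 0.16. Depth limits statements on chains with few counts, COL11A1, COL15A1 and the KD levels of COL2A1, COL4A5, COL4A6, COL25A1 and COL26A1 among them.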

Other observations

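Rows named after collagen genes but outside the chain rule add a few values, with no explanation tested. COL4A2-AS2, an antisense RNA gene at COL4A2, had 130, 112 and 118 counts in NC and 203, 206 and 205 in KD and was called higher (log2 fold change 0.89, edgeR adjusted p = 1.28e-06), but lower on the leukocyte scale (-0.38). COL4A2-AS1, with 59, 43 and 60 counts in NC and 65, 70 and 69 in KD, did not pass (log2 fold change 0.45, edgeR adjusted p = 0.0513), but was called lower on the leukocyte scale (-0.81, edgeR adjusted p = 9.49e-04). They share 14 and 81 exon bases with COL4A2 on the opposite strand, and reads of that overlap cannot be told apart without strand. The pseudogenes COL6A4P1 and COL6A4P2 were called lower (log2 fold changes -1.31 and -1.84; -2.56 and -3.10 on the leukocyte scale), from 16, 18 and 26 and from 13, 35 and 39 counts in NC to 6, 8 and 8 and 6, 6 and 10 counts in KD. Reads shared with near-identical sequence elsewhere could not be checked. COL18A1-AS1, COL18A1-AS2, COL25A1-DT and COL11A2P1 had no count in any library.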
